A study of Homo sapiens with 4 samples.

Results

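The 10 genes described here are transcription factors that set granulocyte, monocyte and progenitor fate: CEBPA, CEBPB, CEBPD, CEBPE, SPI1, GFI1, IRF8, KLF4, GATA2 and RUNX1. They were found by gene name among the 50868 genes of the deposited expression table, and each name matched 1 row. Messenger RNA was sequenced in KBM5 cells, a human line from chronic myeloid leukemia in myeloid blast crisis that carries BCR-ABL. The 4 libraries, 1 per group, came from cells given IM and DSF together (IM-DSF), IM alone (IM), DSF alone (DSF) or neither (CTR). IM and DSF are read here as the kinase inhibitor imatinib and the drug disulfiram; the labels do not spell them out and give no dose or time. The title names leukemia stem cells as the study's subject, while every library came from the same cultured line.

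Granulocytes and monocytes arise from shared progenitors under a small set of DNA-binding proteins that activate their own lineage genes and restrain the alternatives. C/EBP alpha and PU.1, the product of SPI1, open the granulocyte and monocyte programs. IRF8 then favours monocytes and dendritic cells, GFI1 favours neutrophils, and GATA2 and RUNX1 act mainly in stem and progenitor cells. In blast crisis BCR-ABL is known to block translation of the CEBPA message, so an mRNA level does not give the level of the protein. In patients with chronic myeloid leukemia the IRF8 message is known to be reduced.

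The labelled cell type was checked against marker genes. Of 10 granulocyte and monocyte markers 9 averaged at least 1 FPKM (fragment counts divided by gene length and by the library's total), and the list summed to 2501 FPKM in IM-DSF, 2512 in IM, 1960 in DSF and 1431 in CTR. Of 5 stem and progenitor markers only FLT3 did (20.4 FPKM in IM-DSF, 20.5 in IM, 13.9 in DSF and 10.4 in CTR). KIT, PROM1 and SPINK2 were at 0 in every library, and CD34 was at 0 in the 3 treated libraries and at 0.0055 FPKM in CTR. None of 10 erythroid and 6 megakaryocyte markers reached that mean, with 7 and 4 of them at 0 throughout, and of 9 lymphoid markers only NKG7 did, which natural killer cells and some myeloid cells share. These are bulk samples, so fewer cells with a gene and less RNA per cell cannot be told apart.

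The fragments behind each value could be recovered. In genes with a single exon, 99.97% of values times length were whole numbers of 1 step fixed for the library (tolerance 0.02), and the steps correspond to totals of 12443255 fragments in IM-DSF, 15810648 in IM, 14704466 in DSF and 14506545 in CTR. In genes with several exons the same steps gave whole numbers for 92.1% (CTR) to 92.4% (IM) of values when the length was taken as the sum of all distinct exons of the annotation, overlapping ones included. With overlapping exons merged, 3.45% (DSF) to 4.06% (IM) of the values that differ came out whole. Every value of the 10 genes was whole to within 0.0005. The deposited FPKM therefore divides genes with many alternative exons by too great a length. It is lower than the level per kilobase of merged exons by a factor of 2.44 for KLF4, 1.88 for SPI1, 1.68 for IRF8, 1.55 for GATA2, 1.45 for GFI1 and 1.23 for RUNX1, and equal to it for the 4 C/EBP genes. The factor is the same in all libraries, so ratios between libraries are not affected. Levels of different genes are therefore compared as FPKM over merged exons.

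CEBPA was the most abundant of the 10 in every library and KLF4 the least, as the plot of levels shows. On that scale CEBPA had 164 in IM-DSF, 183 in IM, 161 in DSF and 153 in CTR, where 236 of 10962 measured genes lay above it. SPI1 followed with 99.0, 132, 117 and 109 in the same order of libraries. Together they made up 64.9% of the summed level of the 10 genes in IM-DSF, 67.5% in IM, 69.1% in DSF and 68.6% in CTR. IRF8 was next, at 49.3 in IM-DSF, 42.8 in IM, 34.4 in DSF and 35.8 in CTR, and GFI1 lay at 31.4, 33.6, 33.4 and 34.9. IRF8 and GFI1 had overlapping counting intervals in DSF and CTR and did not overlap in IM-DSF and IM. In IM the interval of IRF8 overlapped that of CEBPD. RUNX1 was sixth in each library. CEBPB, CEBPE, GATA2 and KLF4 filled the last 4 places in that order, with intervals that overlapped between CEBPB and CEBPE in DSF and CTR, between CEBPE and GATA2 in IM-DSF and IM, and between GATA2 and KLF4 in IM-DSF.

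**Figure D1:**
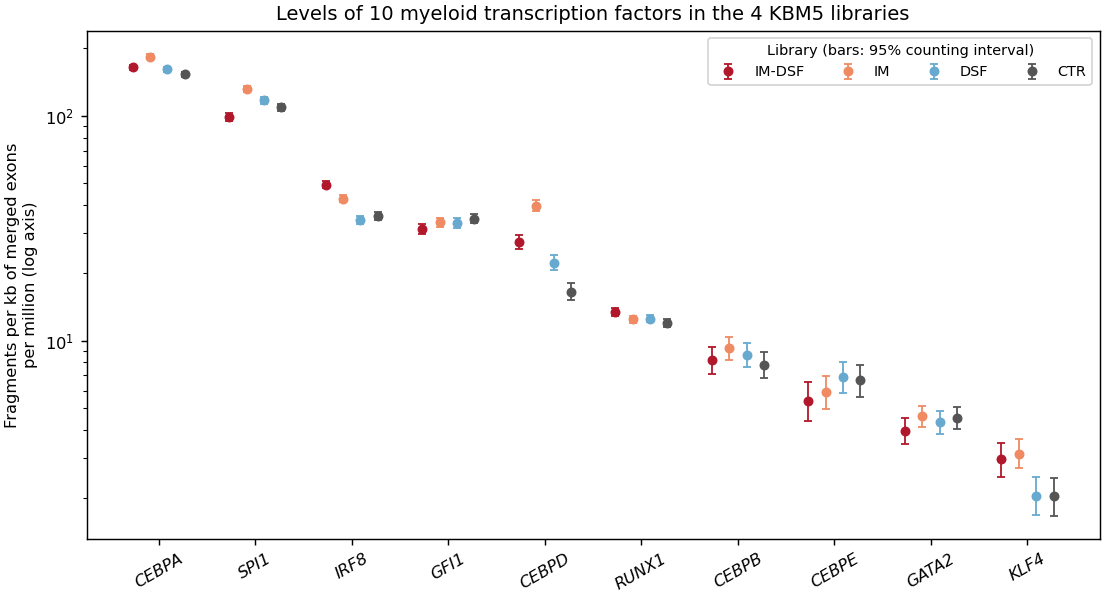
Level of each gene as FPKM over merged exons (log axis), with 1 point per library for IM-DSF, IM, DSF and CTR and bars for the 95% Poisson counting interval. CEBPA and SPI1 stand above 90 in every library, and CEBPD shows the widest spread, with 39.8 in IM and 16.5 in CTR.

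With 1 library per group there is no spread between cultures to compare with, so no p-value is given. A difference is called by its size on the log2(FPKM + 1) scale, at 1 unit or more, and a smaller size of 0.5 units is given beside it. The 95% intervals of ratios (exact conditional binomial on the recovered fragments) cover counting error only. PCR copies and differences between cultures would widen them.

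CEBPD, a C/EBP factor of late granulocyte differentiation and acute inflammation, was the gene that differed most. It had 747 fragments in IM-DSF, 1372 in IM, 712 in DSF and 521 in CTR, which are 27.6, 39.8, 22.2 and 16.5 FPKM. All 3 treated libraries lay above CTR, IM highest. IM was 2.42 times CTR (95% interval 2.18 to 2.68), a difference of 1.22 log2 units that 84 of 11004 genes matched or passed upward (0.763%). It was the only 1 of the 10 past 1 unit in IM against CTR, where 2.43% of all genes were. IM-DSF was 1.67 times CTR (1.49 to 1.87), 0.71 log2 units, and DSF was 1.35 times CTR (1.20 to 1.51). IM-DSF was at 0.692 times IM (0.632 to 0.757), a log2 difference of -0.52. CEBPD (ENSG00000221869, chromosome 8, 47736909 to 47739086, minus strand, GRCh38.p14) has 1 exon, and no exon of another annotated gene covers it on either strand. The summed granulocyte and monocyte markers were also lowest in CTR, with sums of 2501 FPKM in IM-DSF and 2512 in IM. Single markers moved in opposite directions between these 2 libraries. PRTN3 had 989 FPKM in IM-DSF and 1239 in IM, and LYZ had 599 in IM-DSF and 399 in IM. The part of the markers in the CEBPD difference was not tested.

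CEBPA (ENSG00000245848, chromosome 19, 33299934 to 33302564, minus strand), which commits progenitors to the granulocyte and monocyte lineages, varied far less. It had 5375, 7630, 6224 and 5833 fragments in IM-DSF, IM, DSF and CTR. IM was 1.20 times CTR (1.16 to 1.24), and IM-DSF stood at 1.07 relative to CTR (1.04 to 1.12) and at 0.895 relative to IM (0.864 to 0.927). Antisense genes on the other strand cover 43.4% of the CEBPA exon. Of these AC008738.3 was listed at 0 in every library and AC008738.5 had 0.705 (DSF) to 0.919 FPKM (IM). Whether the counting used strand is not given in the sources used here, and its part in the CEBPA value was not tested. CEBPA-DT, the noncoding gene that starts beside CEBPA and runs the other way, had 2.30 FPKM in IM-DSF, 2.22 in IM, 2.17 in DSF and 1.91 in CTR.

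CEBPB, the C/EBP factor of emergency granulopoiesis, had 199 fragments in IM-DSF, 286 in IM, 249 in DSF and 221 in CTR (8.18, 9.25, 8.66 and 7.79 FPKM). The order of the libraries matched that of CEBPA except that DSF lay above IM-DSF in CEBPB and below it in CEBPA. The ratio of IM to CTR was 1.19 (0.993 to 1.42), and every ratio of CEBPB between libraries had an interval that includes 1. CEBPE, needed for the last steps of granulocyte maturation and for secondary granules, had 104, 145, 157 and 150 fragments in IM-DSF, IM, DSF and CTR. IM-DSF stood at 0.808 times CTR (0.623 to 1.04), which also includes 1, and at this depth a difference of that size was not detectable. CEBPB-AS1 covers 11.8% of the CEBPB exon from the other strand.

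Within the C/EBP genes the composition shifted toward CEBPD. Of the summed level of the 4, CEBPD made up 13.4% in IM-DSF, 16.7% in IM, 11.2% in DSF and 8.97% in CTR. CEBPA made up 80.0%, 76.9%, 81.0% and 83.2% in the same order. The ratio of CEBPD to CEBPA inside a library, from which depth cancels, was 0.168 in IM-DSF (0.155 to 0.181), 0.217 in IM (0.205 to 0.230), 0.138 in DSF (0.128 to 0.149) and 0.108 in CTR (0.0985 to 0.118). These 4 intervals do not overlap. The ratio of CEBPB to CEBPA was 0.0498 in IM-DSF, 0.0504 in IM, 0.0538 in DSF and 0.0510 in CTR, with overlapping intervals.

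SPI1 (ENSG00000066336, chromosome 11, 47354860 to 47378576, minus strand) encodes PU.1, which drives myeloid and B cell genes. It had 2550 fragments in IM-DSF, 4304 in IM, 3563 in DSF and 3273 in CTR (52.7, 70.1, 62.4 and 58.1 FPKM). IM lay above CTR at 1.21 times (1.15 to 1.26), whereas IM-DSF was the lowest library, at 0.908 times CTR (0.862 to 0.957), 0.753 times IM (0.717 to 0.791) and 0.846 times DSF (0.804 to 0.890). None of these reached 0.5 log2 units.

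IRF8 (ENSG00000140968, chromosome 16, 85898803 to 85922609, plus strand) directs progenitors to monocytes and dendritic cells and away from neutrophils. Its order differed from that of SPI1 in the combination. It had 3165 fragments in IM-DSF, 3492 in IM, 2614 in DSF and 2679 in CTR, and 29.4, 25.5, 20.6 and 21.4 FPKM. IM-DSF was highest and DSF lowest. IM-DSF was 1.38 times CTR (1.31 to 1.45), 1.15 times IM (1.097 to 1.21) and 1.43 times DSF (1.36 to 1.51), which is 0.497 log2 units and just under the smaller size. IM was 1.20 times CTR (1.14 to 1.26), and DSF 0.963 times CTR (0.912 to 1.02).

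KLF4, a factor that promotes monocyte differentiation, rested on 135 fragments in IM-DSF, 182 in IM, 110 in DSF and 108 in CTR. Both libraries with IM lay above both without it. IM was 1.55 times CTR (1.21 to 1.98) and IM-DSF 1.45 times DSF (1.12 to 1.88), but at 0.833 FPKM in CTR the added pseudocount of 1 reduced these to 0.32 and 0.27 log2 units. DSF was 1.005 times CTR (0.763 to 1.32).

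The other 3 genes varied least. GFI1, a repressor that restrains monocyte genes in neutrophil precursors, had 21.6 FPKM in IM-DSF, 23.1 in IM, 22.9 in DSF and 23.96 in CTR, and its highest library was 1.11 times its lowest. RUNX1, the core-binding factor of definitive blood formation, had 10.9, 10.1, 10.2 and 9.74 FPKM, with IM-DSF at 1.12 times CTR (1.06 to 1.18). GATA2, a factor of stem, progenitor and mast cells, had 2.57, 2.97, 2.804 and 2.93 FPKM, and all of its ratios had intervals that include 1. GATA2-AS1, whose locus overlaps that of GATA2 on the other strand but shares no exon base with it, had 3.06, 3.93, 2.79 and 2.91 FPKM.

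**Figure D2:**
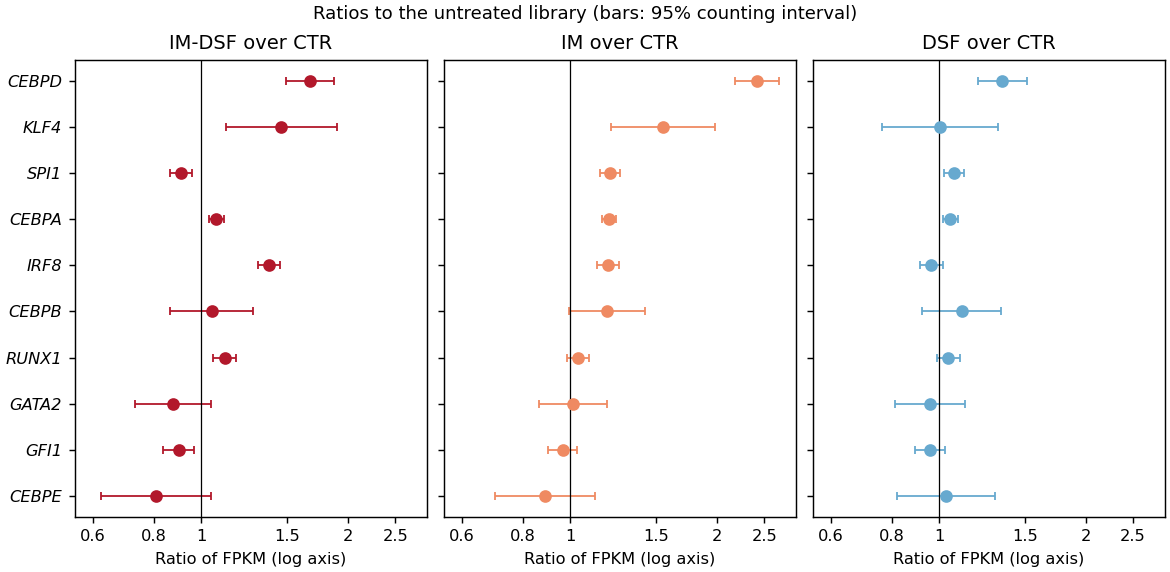
Ratio of FPKM to CTR (log axis) for each gene in IM-DSF, IM and DSF, with 95% counting intervals and a line at 1. CEBPD is the farthest gene to the right in each panel, at 1.67 in IM-DSF, 2.42 in IM and 1.35 in DSF, and SPI1 lies above 1 in IM and below it in IM-DSF.

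As a group the 10 genes moved little in any comparison. All 10 passed the filter of a mean of at least 1 FPKM. KLF4 did so by little, with a mean of 1.04, and only through IM-DSF (1.21) and IM (1.29). It had 0.837 FPKM in DSF and 0.833 in CTR, so its place past the filter depends on the libraries where it was higher. None passed 1 log2 unit in IM-DSF against CTR, where 4.28% of all genes did, in DSF against CTR (1.12%), in IM-DSF against IM (1.74%) or in IM-DSF against DSF (2.37%). At 0.5 units CEBPD alone passed in IM-DSF against CTR (22.7% of all genes), in IM against CTR (15.0%) and in IM-DSF against IM (7.84%), and none did in DSF against CTR (6.30%) or in IM-DSF against DSF (14.6%). The call in IM-DSF against IM was lost with TPM (-0.48) and with scaling to nuclear genes (-0.43). In IM-DSF against DSF, IRF8 passed 0.5 units with a pseudocount of 0.1, TPM, merged exons and nuclear scaling, and in IM against CTR KLF4 passed with a pseudocount of 0.1. At 0.5 units these counts lie near or below the share of all genes, and at 1 unit they rest on CEBPD alone. Median log2 differences were 0.08 in IM-DSF against CTR (0.02 over all genes), 0.23 in IM against CTR (0.02), 0.05 in DSF against CTR (7.5e-05), -0.13 in IM-DSF against IM (-0.0013) and -0.02 in IM-DSF against DSF (0.01), which changed sign to 0.01 with TPM and 0.0013 with scaling to nuclear genes. The 3 comparisons with CTR share that library.

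Counting intervals are given beside the share of all genes. In IM against CTR, 5 of the 10 ratios lay wholly above 1 (CEBPA, CEBPD, SPI1, IRF8 and KLF4), where 33.2% of all genes did, and 0 lay wholly below (29.8%). In IM-DSF against CTR, 5 lay above (33.9%) and SPI1 and GFI1 below (32.7%), and in DSF against CTR CEBPA, CEBPD and SPI1 lay above (22.2%) and 0 below (22.5%). In IM-DSF against IM, IRF8 and RUNX1 lay above (21.4%) and CEBPA, CEBPD and SPI1 below (23.5%). In IM-DSF against DSF, CEBPD, IRF8, KLF4 and RUNX1 lay above (30.9%) and SPI1 below (29.8%). All of these intervals take the deposited scaling as given and were not recomputed with other factors. With TPM the CEBPA difference in DSF against CTR went from 0.07 to 0.04 log2 units, so calls with a limit close to 1 may depend on scaling.

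Whether the IM ratio differed with DSF present was described by dividing the ratio of IM-DSF to DSF by that of IM to CTR, which uses all 4 libraries. For CEBPD the IM ratio was 1.24 with DSF and 2.42 without it, and their quotient was 0.513 (0.444 to 0.593, log-normal interval for counting error). For SPI1 it was 0.846 with DSF and 1.21 without, a quotient of 0.701 (0.655 to 0.750), and for CEBPA 1.02 with DSF and 1.20 without, a quotient of 0.850 (0.809 to 0.894). IRF8 went the other way, at 1.43 with DSF and 1.20 without, a quotient of 1.20 (1.11 to 1.29). The quotients of the other 6 genes had intervals that include 1. All of these intervals take the deposited scaling as given and were not recomputed with other factors. Such intervals lay wholly below 1 for 23.5% of all genes and wholly above for 19.9%. On the log2(FPKM + 1) scale the departure from additivity of CEBPD was -0.93, which 214 of 11004 genes matched or passed downward (1.94%), that of SPI1 was -0.50 (7.57%) and that of IRF8 was 0.25 (16.0% upward). With TPM the departure of CEBPA went from -0.23 to -0.15 and that of RUNX1 from 0.04 to 0.13. Quotients with a limit close to 1 may therefore depend on scaling.

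**Figure D3:**
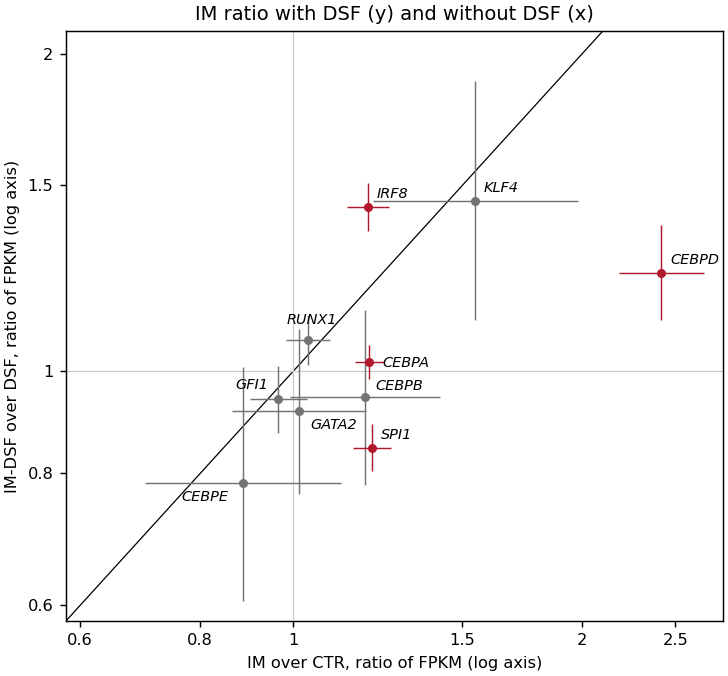
Ratio of IM-DSF to DSF (vertical, log axis) against the ratio of IM to CTR (horizontal, log axis) for the 10 genes, with 95% counting intervals; the diagonal marks equal ratios, and red marks the genes whose quotient has an interval without 1. CEBPD, SPI1 and CEBPA lie below the diagonal, and IRF8 lies above it at 1.43 against 1.20.

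Ratios of genes that oppose or assist each other were taken inside each library, so that no scaling between libraries enters. IRF8 stood at 1.57 times GFI1 in IM-DSF (1.47 to 1.68), 1.27 times in IM (1.20 to 1.35), 1.03 times in DSF (0.970 to 1.099) and 1.03 times in CTR (0.965 to 1.09). DSF and CTR overlapped, and the 2 libraries with IM lay above both and apart from each other. CEBPA stood at 1.66 times SPI1 in IM-DSF (1.58 to 1.74), against 1.39 in IM, 1.37 in DSF and 1.40 in CTR, so IM-DSF alone lay apart. SPI1 stood at 24.9 times GATA2 in IM-DSF, 28.5 in IM, 26.9 in DSF and 24.0 in CTR, with intervals that overlapped.

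**Figure D4:**
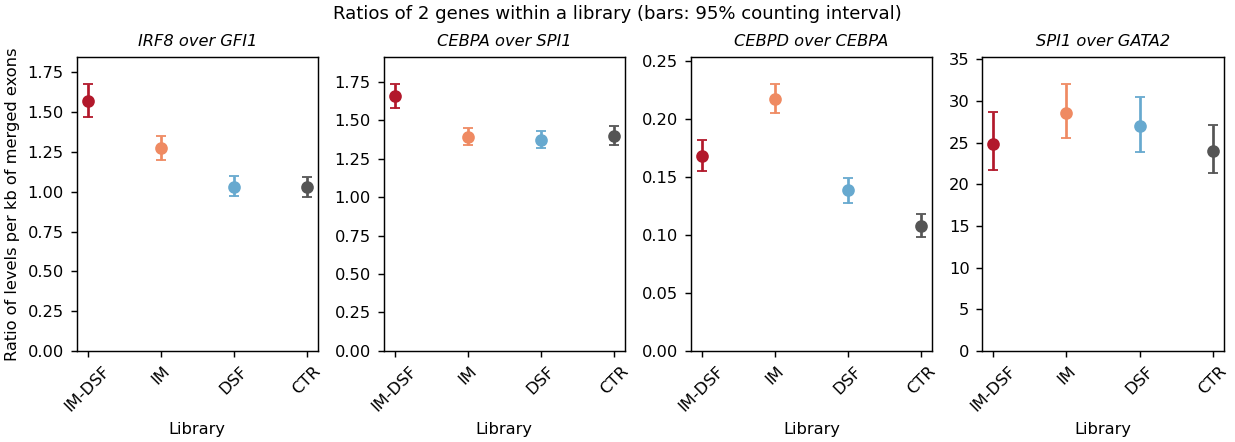
Ratio of the levels of 2 genes inside each library (per kilobase of merged exons, linear axes from 0), with 95% counting intervals, for IM-DSF, IM, DSF and CTR from left to right. IRF8 over GFI1 is 1.57 in IM-DSF and 1.03 in CTR, CEBPA over SPI1 stands apart in IM-DSF, and CEBPD over CEBPA is highest in IM.

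Likeness among the 10 was measured as the distance between their log2 differences from CTR over the 3 treated libraries. GFI1 and GATA2 were closest (0.07 log2 units), followed by CEBPA and CEBPB (0.08). CEBPD was farthest from all others, 1.08 from its nearest, KLF4. These distances rest on 3 points that share CTR, and low genes have small differences on this scale.

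Promoter sequence was read from RefSeq (GRCh38.p14) as the 250 bases before each listed start, and 8 of the 10 genes matched in the table used, with 13 windows; SPI1 and CEBPD were not analysed here. Both strands were searched for letters of 5 known motifs. The C/EBP letters TTGCNNAA were in 1 of the 13 windows, that of GFI1, and in 9.05% of 35116 RefSeq windows of the same length. The core letters of PU.1 sites, GAGGAA, were in 5 windows, of GFI1, GATA2, KLF4, CEBPE and RUNX1 (23.6% of all windows). The RUNX letters TGTGGT were in 2, of GFI1 and IRF8 (10.98%). The STAT letters TTCNNNGAA were in 1, of CEBPE (6.57%), and the GATA letters AGATAA in 0 (9.17%). Some windows lie in annotated exons of the same gene. These exons cover all 250 bases of the CEBPE window, 141 of the IRF8 window with TGTGGT and 140 of the GFI1 window with GAGGAA. The other windows with matches hold 0 exon bases. Of the windows of GFI1, the gene with the least spread, 1 is printed, and so is that of KLF4, which stood higher in both IM libraries. Both are given 5′ to 3′ on the gene's strand, which is the minus strand for both, with matches in capitals. In the printed GFI1 window these are TTGCGCAA, 142 bases before the start, and TGTGGT, 47 bases before it. The GAGGAA of GFI1 lies in another window, not printed, 30 bases before the start of that window's transcript. In KLF4 the match is GAGGAA, 54 bases before the start. The matches do not overlap and describe letters only.
GFI1 chr1:92486100-92486349: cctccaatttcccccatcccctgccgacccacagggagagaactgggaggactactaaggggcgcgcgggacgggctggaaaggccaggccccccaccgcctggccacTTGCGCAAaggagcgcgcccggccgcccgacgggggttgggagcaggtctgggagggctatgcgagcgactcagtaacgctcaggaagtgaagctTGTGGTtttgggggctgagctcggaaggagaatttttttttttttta
KLF4 chr9:107489770-107490019: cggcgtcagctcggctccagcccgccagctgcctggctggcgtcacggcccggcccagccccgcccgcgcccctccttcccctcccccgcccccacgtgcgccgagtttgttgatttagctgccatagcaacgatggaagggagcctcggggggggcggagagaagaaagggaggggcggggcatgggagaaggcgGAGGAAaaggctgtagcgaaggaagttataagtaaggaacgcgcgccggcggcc

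Genes that these factors are known to activate had larger median differences from CTR than the factors. Of 18 C/EBP targets of granulocytes 9 passed the filter, and 4 of them were past 1 log2 unit upward in IM-DSF against CTR (2.54% of all genes), 3 in IM against CTR (1.54%) and 0 in DSF against CTR (0.545%), with list medians of 0.73, 0.67 and 0.40. In IM-DSF against IM 5 of the 9 lay above 0 (median 0.04), against 49.7% of all genes. In IM-DSF against DSF 5 also did (median 0.23), against 51.7% of all genes. LYZ, lysozyme, had 599 FPKM in IM-DSF, 399 in IM, 217 in DSF and 154 in CTR, and CSF3R, the receptor of granulocyte colony-stimulating factor, had 22.1, 18.0, 9.497 and 5.003; these 2 passed 1 unit with IM both with and without DSF. S100A9, a calcium-binding protein of mature granulocytes and monocytes, had 6.41 FPKM in IM-DSF and 2.08 in IM, 2.48 in DSF and 2.03 in CTR. These values rest on only 46, 19, 21 and 17 fragments, and IM-DSF was 3.15 times CTR (1.77 to 5.87). The secondary granule and late neutrophil genes LTF, LCN2, CEACAM8, MMP8 and MMP9, some of which need CEBPE, were listed at 0 in every library. CAMP, another granule gene of that list, did not pass the filter but was not at 0. It had 1.08 FPKM in IM-DSF, 0.849 in IM, 0.730 in DSF and 0.278 in CTR, on 10, 10, 8 and 3 fragments. LYZ shares 34.0% of its exon bases with a gene on the other strand.

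Of 18 PU.1 and IRF8 targets of monocytes 16 passed the filter. Past 1 unit upward were 5 in IM-DSF against CTR (2.54% of all genes), 1 in IM against CTR (1.54%) and 0 in DSF against CTR (0.545%). The list medians were 0.39, 0.39 and 0.14. In IM-DSF against IM 14 of the 16 lay above 0 (median 0.18), against 49.7% of all genes (median -0.0013). SPI1 stood there at 0.753 times and IRF8 at 1.15 times IM. In IM-DSF against DSF 15 lay above 0 (median 0.44), against 51.7% of all genes (median 0.01). SPI1 stood there at 0.846 times and IRF8 at 1.43 times DSF. CSF1R, the macrophage growth factor receptor, had 2.38 FPKM in IM-DSF, 1.94 in IM, 1.03 in DSF and 0.434 in CTR. It is among the 5 genes past 1 unit in IM-DSF and is the 1 gene past it in IM. Its mean passed the filter only through the treated libraries, where it was higher. TYROBP, an adaptor of monocyte receptors, had 8.88, 6.65, 3.55 and 2.86. CD68, a lysosomal membrane protein of macrophages, had 14.4, 10.8, 7.24 and 5.72, but 81.7% of its exon bases are shared with a read-through gene on the same strand. Both target lists hold genes that many other factors also drive.

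Among relatives and partners of the 10, 1 gene was past 1 log2 unit in any comparison. LMO2, a bridging protein in complexes with GATA and TAL1 factors, had 24.4 FPKM in IM-DSF, 28.2 in IM, 23.8 in DSF and 9.502 in CTR, so each treated library was past 1 unit above CTR. TAL1 itself, GATA1 and GFI1B were at or near 0. LYL1, a TAL1 relative, was measured at 21.7, 24.0, 20.4 and 18.1 FPKM. CBFB, the partner of RUNX1, had 7.04, 6.97, 7.15 and 8.05 FPKM, and RUNX3 had 1.45, 1.30, 2.21 and 2.13. KLF6, a widely expressed relative of KLF4, had 3.14, 3.61, 2.28 and 2.19 FPKM in the same order. Of the 13 genes of this list 5 passed the filter.

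Among 7 other C/EBP genes and regulators, TRIB3, a stress-induced pseudokinase, was past 1 unit downward in IM-DSF and IM against CTR, with 4.69 FPKM in IM-DSF, 3.69 in IM, 5.52 in DSF and 11.4 in CTR. TRIB1 and TRIB2, pseudokinases that direct the breakdown of C/EBP alpha, lay between 1.58 and 2.16 FPKM. DDIT3, the stress factor CHOP, had 2.57, 2.09, 1.31 and 1.504 FPKM and shares exon bases with other genes on both strands. CEBPZ, a nucleolar protein that shares only the name, had 51.3, 51.4, 63.8 and 72.6 FPKM in the same order.

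Of 15 monocyte and granulocyte factors outside the 10, 6 passed the filter. IRF5, a factor of inflammatory macrophages, had 3.70 FPKM in IM-DSF, 3.86 in IM, 1.41 in DSF and 1.07 in CTR, past 1 unit in both IM libraries against CTR. ZEB2, needed for monocyte and dendritic cell fate, had 11.3, 10.505, 7.80 and 6.58 FPKM, and NFIL3, a factor of innate lymphoid and myeloid cells, had 11.3, 9.28, 9.002 and 8.66. EGR1 and EGR2 stayed under 0.5 FPKM in every library. Of 12 stem and progenitor factors 7 passed and none was past 1 unit in the 5 comparisons. IKZF1 (Ikaros) had 9.36, 13.3, 14.8 and 13.9 FPKM, HOXA10, which shares 9.93% of its exon bases with a gene on the same strand, had 8.85, 9.68, 6.50 and 7.36, and FLI1 had 9.74, 10.52, 8.61 and 8.04. Of 8 erythroid and megakaryocyte factors 2 passed, and both were lowest in DSF. MAFG had 23.5 FPKM in IM-DSF, 25.0 in IM, 7.59 in DSF and 21.95 in CTR, and its partner NFE2 had 3.498 in IM-DSF, 3.12 in IM, 0.987 in DSF and 2.12 in CTR. MAFG shares 2.01% of its exon bases with a gene on the same strand. None of 8 lymphoid factors passed the filter.

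**Figure D5:**
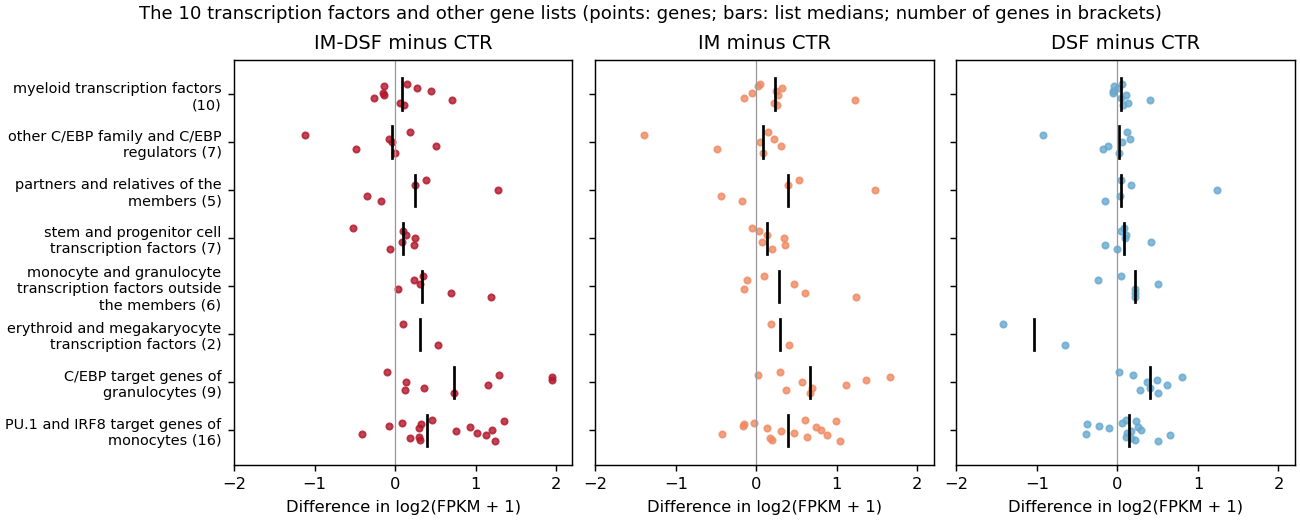
Difference in log2(FPKM + 1) from CTR in IM-DSF, IM and DSF for the genes past the filter in each list (points), with list medians as bars and the number of genes in brackets. The granulocyte target list has medians of 0.73 in IM-DSF and 0.67 in IM, against 0.08 and 0.23 for the 10 transcription factors.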

How the data were processed

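The authors deposited 1 table of FPKM values with 4 columns named after the libraries, per the file headers. HISAT2 2.0.4 is listed, with build GRCh38.p14, per the submitters' processing notes. The libraries were made with a stranded mRNA kit, per the labels' protocols. For the counter, the annotation and the use of strand, nothing was found in the sources used here. GENCODE 29 matched 50111 of 50868 gene identifiers, gave the exon lengths, and had the same start and end for all 10 genes. Steps were found in single-exon genes and applied to all; for 9546 of the 10962 matched genes past the filter all 4 values were whole. Differences were log2(FPKM + 1) over the 11004 genes averaging 1 FPKM or more. Backgrounds of intervals used the 9528 whole genes with fragments in each library. Methods were tested on simulated data. The 10 genes, the other lists and the naming rule (the 3 largest differences per list in IM-DSF against CTR, and genes past 1 unit in both comparisons of 1 drug) were chosen with earlier results of these data known. CEBPA-DT, TRIB1, TRIB2, TAL1, LYL1, CBFB, GATA1, GFI1B, EGR1, EGR2, PRTN3, CAMP and the granule genes at 0 fall outside that rule. They were chosen after their values were seen. Python 3.11.15, numpy 2.4.6 and scipy 1.17.1 were used.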

Additional observations from a re-analysis of the deposited data

How the results depend on the processing

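Other settings tried were 0.1 as pseudocount, all genes unfiltered, a 5 FPKM mean as filter (which 8 of the 10 genes passed), rescaling to TPM, median-of-ratios and trimmed mean factors, and a protein-coding background. Levels per kilobase of merged exons and scaling to nuclear genes were added after seeing the data. The number of genes past 1 unit was the same in every comparison under each of these settings. At 0.5 units the number became 2 in IM against CTR with a pseudocount of 0.1 (KLF4 joined CEBPD), 1 in IM-DSF against DSF (IRF8) with a pseudocount of 0.1, TPM, merged exons and nuclear scaling, and 0 in IM-DSF against IM with TPM and nuclear scaling. Of 468 single-gene values under the alternatives 460 stayed within their counting interval and 13 values, medians included, changed sign, the largest of them -0.0506 units as reported (KLF4 departure from additivity, 0.0016 with nuclear scaling). Against protein-coding genes alone, 3.37% were past 1 unit in IM-DSF against CTR. The median in IM-DSF against DSF changed sign with TPM (0.01) and nuclear scaling (0.0013). No paired analysis was possible because each group has 1 library. The depth limits CEBPB, CEBPE, KLF4 and GATA2, each under 330 fragments per library.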
